A study of Homo sapiens with 10 samples.

Results

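The genes described here encode the SOX, GATA, TBX and PAX transcription factors, and they were chosen by symbol: SOX, GATA, TBX or PAX followed by a number, protein-coding, on chromosomes 1 to 22, with GATA3 left out. The choice gave 43 of 19229 protein-coding genes, namely 18 SOX, 4 GATA, 12 TBX and 9 PAX genes. MDAMB231, an established human triple-negative breast cancer cell line, was grown in DMEM with 5% FBS and crosslinked with 1% formaldehyde, without any treatment. Active and open chromatin was mapped by ChIP-seq for H3K4me3, H3K27Ac and H3K4me1 and by FAIRE-seq, with 2 samples for each assay, 1 input for ChIP and 1 input for FAIRE. The authors combined the samples of an assay into 1 list of peaks, so no peak has an error between samples and no test was made. The lists held 18019 H3K4me3, 37495 H3K27Ac, 26771 H3K4me1 and 46552 FAIRE peaks, and the read depth behind them cannot be read from the lists.

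SOX proteins bind DNA through an HMG box, GATA proteins through zinc fingers, TBX proteins through the T-box and PAX proteins through the paired domain. Most of these genes are switched on in particular lineages of the embryo, such as neural crest, heart, limb, kidney and blood, and many are kept silent by Polycomb elsewhere. H3K4me3 marks start sites that are active or poised, H3K27Ac marks active promoters and enhancers, H3K4me1 marks enhancers, and FAIRE recovers DNA depleted of nucleosomes.

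A gene was counted as marked when a peak shared at least 1 base with any of its start sites widened by 1 kb, here called its promoter. The score of a ChIP-seq peak is 10 times the negative log10 of its p-value, runs from 50 upward, and stood at 3100 or more for 56.8% of H3K4me3 peaks. The value of a FAIRE peak was read as its height, with a median of 61.1 over the list. Some FAIRE peaks directly abut another, so 1 open region can be listed as more than 1 peak. The label of the line was checked against marker genes. VIM, CD44, AXL, ZEB1 and CAV1, genes of mesenchymal breast cancer cells, all had peaks of the 4 lists at their promoters. ESR1 and PGR, the hormone receptor genes, had H3K4me3 peaks of score 1258 and 399.5 without H3K27Ac. ERBB2 and EPCAM had both marks, and CDH1, the epithelial cadherin gene, had no H3K4me3 but an H3K27Ac peak of score 538 and a FAIRE peak of height 31.7.

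Few of the factor genes were marked at their promoters. H3K4me3 lay at a promoter of 16 of the 43 members (37.2%), against 68% of all protein-coding genes. H3K27Ac was found at 15 members (34.9%, against 64.2%), H3K4me1 at 3 (6.98%, against 20.6%) and FAIRE at 7 (16.3%, against 39.6%). At canonical starts alone, H3K4me1 marked 1 member (2.33%, against 12.8%) and FAIRE 4 (9.3%, against 31.8%), and with peak centres in the window H3K4me1 marked 1 (2.33%, against 8.87%). No peak of any list lay at a promoter of 26 members (60.5%), where this held for 28.5% of all genes. For 7 members (16.3%, against 3.87%) no list had a peak anywhere in the gene bounds widened by 100 kb. With bounds widened by 20 kb this held for 13 members (30.2%, against 12.1%). Forkhead and HOX genes, other families of developmental factors, were counted beside the members. H3K4me3 marked 23 of 42 forkhead genes (54.8%) and 11 of 39 HOX genes (28.2%), and 17 forkhead (40.5%) and 27 HOX genes (69.2%) had no peak at a promoter. These 2 forkhead shares thus lay between those of the members and of all genes. Only 2 forkhead genes (4.76%) and 0 HOX genes lacked any peak within 100 kb.

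**Figure D1:**
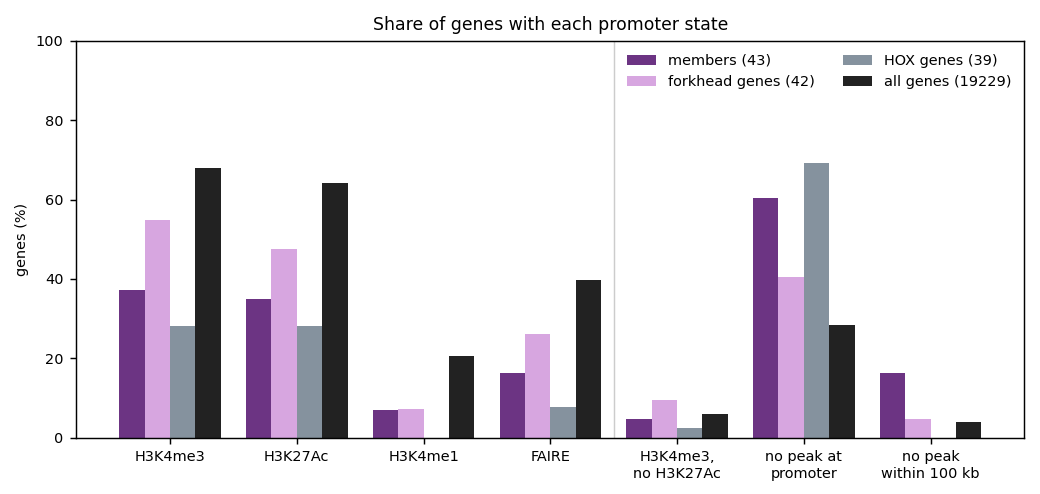
Percentage of genes with each promoter state in 43 members, 42 forkhead genes, 39 HOX genes and all 19229 protein-coding genes, for peaks at promoters (first 4 groups) and for combined states. Members had H3K4me3 in 37.2% and no promoter peak in 60.5%, against 68% and 28.5% of all genes.

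By family, H3K4me3 marked 8 of 18 SOX genes, 2 of 4 GATA genes, 3 of 12 TBX genes and 3 of 9 PAX genes. Both H3K4me3 and H3K27Ac were present at 14 of the 43 members (32.6%), against 11916 of all 19229 genes. The 14 were SOX2, SOX4, SOX5, SOX6, SOX9, SOX12, SOX13, SOX21, GATA2, GATA6, TBX1, TBX2, TBX6 and PAX8. The promoter H3K4me3 peaks of SOX2, SOX4, SOX9, SOX12, SOX13, SOX21, GATA2, GATA6 and PAX8 also held starts of noncoding genes. H3K4me3 without H3K27Ac was found at 2 members, PAX5 and PAX9 (4.65%, against 6.06% of all genes). With ChIP-seq peaks held to p at or under 1e-10, SOX2, SOX5 and SOX21 joined them, and the shares became 11.6% and 7.17%. With peak centres in the window, PAX8, TBX2 and SOX9 joined PAX5 and PAX9 instead (11.6%, against 8.89%). At canonical starts alone PAX9 was left (2.33%, against 6.33%). SOX15 had H3K27Ac without H3K4me3. Of the 26 members without a promoter peak, 19 had peaks within 100 kb and 7 had none.

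**Figure D2:**
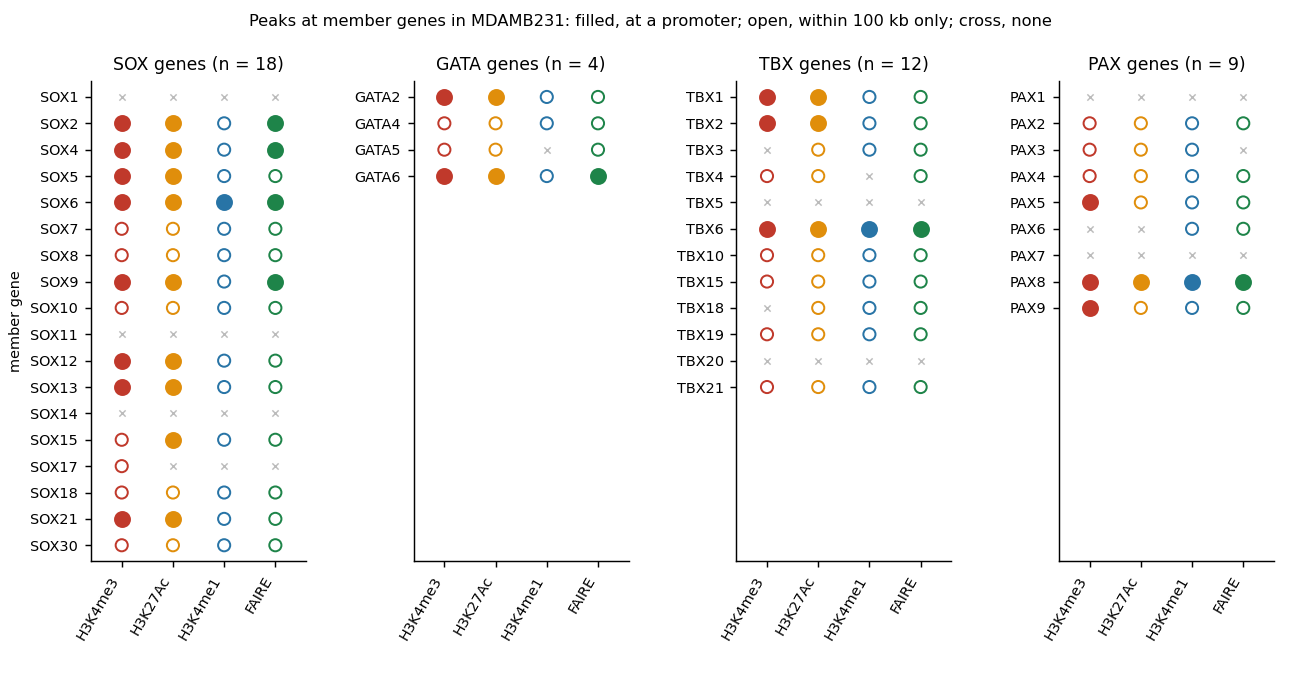
The 43 members by family (rows) and the 4 peak lists (columns), with filled circles for a peak at a promoter, open circles for peaks within 100 kb only and crosses for no peak. PAX8, SOX6 and TBX6 are filled in all 4 columns, and the rows of 7 members hold only crosses.

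CpG content was measured around the canonical starts, and its part in the low share of H3K4me3 was not tested. Over the bases from 250 before to 50 after the canonical start, the members had a median GC content of 64.7% and a median ratio of observed to expected CpG of 0.725, against 63.7% and 0.781 over the 18977 genes with such a window. A start was called CpG-rich with GC above 50% and a ratio above 0.6, limits chosen after the peak data were seen. By these limits 28 of 43 member starts (65.1%) and 66.2% of all starts were CpG-rich. H3K4me3 lay within 1 kb of 6 of the 28 CpG-rich member starts (21.4%), against 87.3% of all CpG-rich starts. The 6 were SOX2, SOX12, SOX21, GATA6, TBX1 and TBX6. Of the other 22, GATA2, PAX5 and TBX2 had H3K4me3 at another start and 19 had none. Among starts that were not CpG-rich, H3K4me3 marked 5 of 15 members (33.3%), against 23.5% of all genes. These 5 were SOX4, SOX5, SOX9, SOX13 and PAX9, with PAX9, SOX9 and SOX13 just under the limit at ratios of 0.556, 0.566 and 0.597. The direction for starts that were not CpG-rich turned with the limits. It was 26.9% against 41% with stricter limits, and 20% against 23.3% with the content taken over 500 bases on each side.

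**Figure D3:**
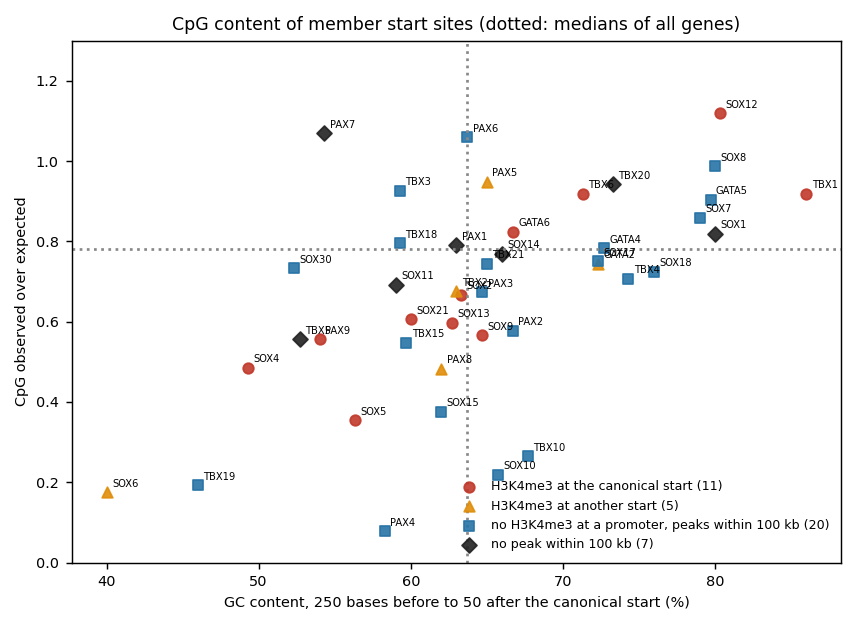
GC content (x axis, percent) and observed over expected CpG (y axis) of the 43 canonical member starts, coloured by where H3K4me3 was found, with dotted lines at the medians of all genes (63.7% and 0.781). Starts with and without H3K4me3 overlap. Of the 7 members without any peak within 100 kb, SOX1, TBX20, PAX7 and PAX1 lie above the median ratio, at 0.819, 0.943, 1.07 and 0.79. SOX11, SOX14 and TBX5 lie below that median, at 0.692, 0.769 and 0.557.

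The sequences of 5 promoters show this range, each as the 250 bases before the canonical start, 5′ to 3′ on the strand of the gene, with CG in capitals. SOX12 (chr20:305946-306195, GRCh37, plus strand) and SOX2 (chr3:181429463-181429712, plus strand) carried H3K4me3, with 42 and 20 CG. SOX1 (chr13:112721213-112721462, plus strand) and TBX20 (chr7:35293712-35293961, minus strand) had 31 CG each and no peak within 100 kb. SOX4 (chr6:21593732-21593981, plus strand) had 8 CG and the widest H3K4me3 peak of the members. None of the 5 stretches overlaps an annotated UTR. The SOX2 stretch lies within SOX2-OT and overlaps an exon of a noncoding gene, and the SOX12, SOX1 and SOX4 stretches lie in introns of noncoding genes.
SOX12: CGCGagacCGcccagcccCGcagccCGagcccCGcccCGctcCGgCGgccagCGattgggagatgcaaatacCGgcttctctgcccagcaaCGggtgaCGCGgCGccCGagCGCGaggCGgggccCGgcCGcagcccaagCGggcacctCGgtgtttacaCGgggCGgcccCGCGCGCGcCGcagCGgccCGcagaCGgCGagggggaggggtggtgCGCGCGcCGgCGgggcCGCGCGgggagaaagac
SOX2: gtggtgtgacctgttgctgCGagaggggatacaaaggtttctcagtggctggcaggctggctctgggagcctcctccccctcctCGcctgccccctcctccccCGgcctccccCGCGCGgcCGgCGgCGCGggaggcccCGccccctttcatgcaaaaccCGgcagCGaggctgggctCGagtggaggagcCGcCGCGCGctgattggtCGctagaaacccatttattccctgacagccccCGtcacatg
SOX1: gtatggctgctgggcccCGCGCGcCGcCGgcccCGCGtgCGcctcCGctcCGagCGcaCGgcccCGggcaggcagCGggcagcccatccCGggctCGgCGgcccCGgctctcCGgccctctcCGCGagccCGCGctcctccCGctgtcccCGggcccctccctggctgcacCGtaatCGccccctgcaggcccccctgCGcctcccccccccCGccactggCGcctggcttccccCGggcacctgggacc
TBX20: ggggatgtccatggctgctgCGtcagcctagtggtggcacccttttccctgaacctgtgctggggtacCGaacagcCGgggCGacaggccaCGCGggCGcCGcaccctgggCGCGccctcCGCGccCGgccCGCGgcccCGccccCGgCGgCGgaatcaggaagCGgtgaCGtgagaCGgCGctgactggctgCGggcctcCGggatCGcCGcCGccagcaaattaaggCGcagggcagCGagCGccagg
SOX4: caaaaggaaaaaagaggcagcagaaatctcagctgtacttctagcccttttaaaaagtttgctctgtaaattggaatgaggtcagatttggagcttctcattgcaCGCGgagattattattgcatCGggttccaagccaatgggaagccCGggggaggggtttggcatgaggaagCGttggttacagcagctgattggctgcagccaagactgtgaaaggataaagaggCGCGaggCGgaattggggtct

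The SOX genes are described by group, and differences between these small groups were not tested. All 3 SOXD genes, whose proteins lack a transactivation domain, had both marks. SOX13 had an H3K4me3 peak of 3786 bp and score 3100 (chr1:204041383-204045168) over an H3K27Ac peak of 3651 bp and score 2366, with another H3K27Ac peak of score 531 over an internal start, centred 6.23 kb after the canonical start. SOX6, a cartilage and erythroid factor, was bare at its canonical start. Its H3K4me3 peaks lay over upstream starts, centred at -250 kb (chr11:16625326-16630389, 5064 bp, score 3100) and at -382 kb (chr11:16758966-16762204, 3239 bp, score 3100). The H3K27Ac scores there were 589 and 1580, the FAIRE heights 80.4 and 93.5, and the farther H3K4me3 peak, beside an H3K4me1 peak of score 109, also lay within 1 kb of a start of C11orf58. SOX5, which acts with SOX6 in cartilage, had H3K4me3 at its canonical start (chr12:24101780-24104690, 2911 bp, score 2060) and at -613 kb (chr12:24713636-24717724, 4089 bp, score 3100). The H3K27Ac scores at these starts were only 73.7 and 85.8.

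The SOXC genes, factors of neural and mesenchymal progenitors, were marked in 2 of 3 cases. SOX4, often high in carcinomas, had a single H3K4me3 peak of 6251 bp (chr6:21593256-21599506, score 3100) that covered 100% of the gene. Its width stood at percentile 97.7 of the widest promoter peaks of all genes with H3K4me3. The H3K27Ac score was 2788 and the FAIRE height 111. SOX12 had an H3K4me3 peak of 5435 bp (chr20:303758-309192, score 3100) and an H3K27Ac peak of 5375 bp and score 3100, without FAIRE. SOX11, the third, had no peak of any list within 100 kb, and the nearest peak was 389 kb from its start. In the SOXE group SOX9, a factor of cartilage and of mammary stem cells, had an H3K4me3 peak of 5329 bp (chr17:70114725-70120053, score 3100), an H3K27Ac peak of 9766 bp and score 2613, and a FAIRE peak of height 74.4. SOX8 and SOX10, neural crest genes of the same group, had no promoter peak, and the nearest peaks were 9.92 and 10.5 kb from their start sites.

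SOX2, the pluripotency factor, and SOX21, its relative with repressor activity, had H3K4me3 with weak H3K27Ac, as SOX5 did. H3K4me3 reached a score of 3100 at both (chr3:181428673-181431207, 2535 bp, and chr13:95364316-95366661, 2346 bp). The H3K27Ac peaks there had scores of 63.4 and 61.9, close to the lowest score of 50. SOX2 also had a FAIRE peak of 1473 bp and height 46.1. Their group partners SOX1 and SOX14, also genes of neural progenitors, had no peak within 100 kb. SOX7, SOX17 and SOX18, the SOXF factors of endothelium and endoderm, were all without a promoter peak. SOX15, a factor of muscle progenitors, lay under an H3K27Ac peak of 10283 bp and score 1002 (chr17:7485493-7495775) that also lay within 1 kb of starts of FXR2 and MPDU1, with 15 other protein-coding genes in its window. SOX30, a factor of male germ cells, had no peak at its promoters.

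GATA6, the factor of heart, gut and lung, had H3K4me3 at its start (chr18:19748148-19751665, 3518 bp, score 3100), H3K27Ac of score 2377 and a FAIRE peak of height 33.5. Its relatives GATA4 and GATA5 had no promoter peak. GATA2, a factor of blood stem cells, had H3K4me3 over internal starts, centred 4.71 kb after the canonical start (chr3:128204894-128209780, 4887 bp, score 3100), with H3K27Ac of score 1089. The H3K4me3 and H3K27Ac peaks also held a start of GATA2-AS1. The canonical start of GATA2, 1 of 10, had no peak of any list within 1 kb.

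Of the TBX genes, TBX1, TBX2 and TBX6 were marked. TBX6, a factor of paraxial mesoderm, had peaks of all 4 lists: H3K4me3 of 2384 bp and score 2494 (chr16:30102293-30104676), H3K27Ac of score 1313, H3K4me1 of score 61.5 and FAIRE of height 65.8. The FAIRE peak lay 844 bp from the nearest start and shared no base with the H3K4me3 peak. TBX6 lay among 13 other protein-coding genes, the second highest number after SOX15. TBX1, the pharyngeal arch factor, had H3K4me3 of 4091 bp and score 3100 at its canonical start (chr22:19746569-19750659) with H3K27Ac of score 244. A separate TBX1 peak of 1464 bp and score 1691 centred at -3.79 kb from the canonical start (chr22:19743781-19745244) shared no base with H3K27Ac. TBX2, a repressor of growth arrest genes, had H3K4me3 of 2045 bp and score 554 only at an internal start, centred 9.63 kb after the canonical start (chr17:59485816-59487860), with H3K27Ac of score 262. A second H3K4me3 peak of 3305 bp and score 3100 (chr17:59487892-59491196) lay under the same H3K27Ac peak, 1809 bp from that start and so outside the promoter window. This second peak lay past the end of TBX2 and held starts of the noncoding genes LINC02875 and TBX2-AS1. TBX3, the partner of TBX2 in mammary development, had no promoter peak, and neither had TBX4, TBX10, TBX15, TBX18, TBX19 and TBX21. TBX5 and TBX20, heart factors, had no peak within 100 kb.

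PAX8, a factor of thyroid and kidney, was marked by all 4 lists, but not at its canonical start. The H3K4me3 peak (chr2:113992120-113995642, 3523 bp, score 3100) was centred 42.6 kb inside the gene over internal starts and a start of PAX8-AS1. It lay under an H3K27Ac peak of 9147 bp and score 3221 and shared bases with an H3K4me1 peak of score 108. Abutting FAIRE peaks of height 131 and 37.4 lay under the same H3K27Ac peak, but within 1 kb of another internal start. They shared no base with the H3K4me3 peak. PAX9, a factor of teeth and the axial skeleton, had H3K4me3 of 3333 bp and score 687 at its start (chr14:37130414-37133746) without H3K27Ac, the nearest H3K27Ac peak lying 23838 bp away. PAX5, the B cell factor, had H3K4me3 of 1441 bp and score 167 (chr9:37024981-37026421), centred 8.56 kb after the canonical start, also without H3K27Ac. The other 6 PAX genes had no promoter peak. They were PAX1, PAX2, PAX3, PAX4, PAX6 and PAX7, with roles in sclerotome, kidney, neural crest, pancreas, eye and muscle.

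Sequence at the bare and marked starts of PAX8 and GATA2 is set out in pairs, again as the 250 bases before each start on the minus strand of GRCh37 with CG in capitals. The PAX8 stretches are chr2:114036499-114036748 at the canonical start, with 11 CG, and chr2:113994507-113994756 at the marked start, with 4 CG, where exons of PAX8 and PAX8-AS1 lie. The GATA2 stretches are chr3:128212045-128212294 at the canonical start, with 24 CG, in an intron of GATA2-AS1, and chr3:128207374-128207623 at the marked start, with 18 CG, in an intron of GATA2. For each gene the marked start is the 1 nearest the centre of its H3K4me3 peak. The 3 PAX8 starts inside the peak held 14, 4 and 3 CG, and the 4 GATA2 starts held 25, 18, 24 and 8, so the number at the canonical start lay within the range at the marked starts.
PAX8 canonical: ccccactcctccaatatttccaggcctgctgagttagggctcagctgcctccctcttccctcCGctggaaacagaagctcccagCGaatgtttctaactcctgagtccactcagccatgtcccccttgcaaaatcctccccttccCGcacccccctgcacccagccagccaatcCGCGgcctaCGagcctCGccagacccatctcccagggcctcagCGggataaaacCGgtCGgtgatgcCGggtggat
PAX8 marked: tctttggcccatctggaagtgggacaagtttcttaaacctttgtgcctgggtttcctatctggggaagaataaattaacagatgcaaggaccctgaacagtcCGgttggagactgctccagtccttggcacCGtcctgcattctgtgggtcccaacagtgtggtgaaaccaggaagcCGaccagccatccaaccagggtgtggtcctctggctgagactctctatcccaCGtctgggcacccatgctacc
GATA2 canonical: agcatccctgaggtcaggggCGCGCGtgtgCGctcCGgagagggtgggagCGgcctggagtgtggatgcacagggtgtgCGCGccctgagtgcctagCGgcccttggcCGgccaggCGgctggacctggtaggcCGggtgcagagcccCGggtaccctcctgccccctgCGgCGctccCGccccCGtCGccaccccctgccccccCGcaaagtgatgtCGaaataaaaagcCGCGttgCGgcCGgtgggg
GATA2 marked: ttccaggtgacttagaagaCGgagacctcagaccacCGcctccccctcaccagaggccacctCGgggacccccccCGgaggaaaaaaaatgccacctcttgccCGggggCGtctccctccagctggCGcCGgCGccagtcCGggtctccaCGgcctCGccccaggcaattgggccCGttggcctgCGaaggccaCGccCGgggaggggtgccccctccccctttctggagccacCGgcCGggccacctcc

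The marked members differed widely in H3K27Ac score. Over the 11916 genes with both marks, the highest H3K27Ac score at a promoter had a median of 1391 and quartiles of 722 and 2413. The 14 members with both marks had a similar median of 1447 but wider quartiles of 249 and 2554. Scores under 100 were found at 3 of 14 members, SOX2, SOX5 and SOX21 (21.4%), against 2.44% of those genes. Scores under 300 were found at 5 members, TBX1 and TBX2 included (35.7%, against 9.07%). PAX8, SOX12, SOX4 and SOX9 stood above the upper quartile of all genes. An H3K4me3 score of 3100 or more was found at 12 of the 16 members with H3K4me3 (75%), against 82.5% of all such genes. Scores pile up at this value, so they cannot rank these 12. The other 4 were TBX6, TBX2, PAX9 and PAX5, the last 3 with low or no H3K27Ac. For TBX2 this leaves out the peak of score 3100 past the end of the gene. The widest H3K4me3 peak had a median of 3654 bp in members and 2987 bp in all marked genes. Peaks of at least 4500 bp were found at SOX4, SOX12, SOX9, SOX6 and GATA2 (31.2% of the marked members, against 10.4%).

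**Figure D4:**
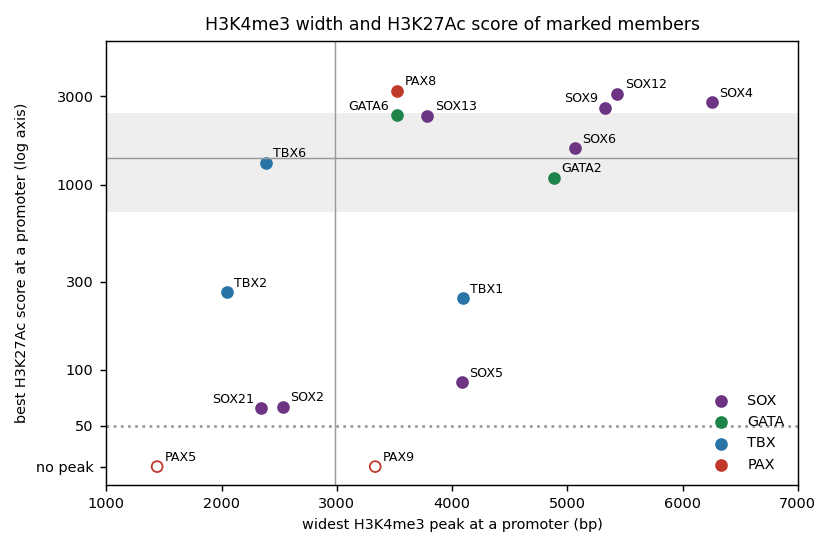
Width of the widest H3K4me3 peak (x axis, bp) and highest H3K27Ac score (y axis, log scale) at the promoters of the 16 members with H3K4me3, coloured by family, with lines at the medians of all genes (2987 bp and 1391), a grey band between the quartiles 722 and 2413, and a dotted line at the lowest score of 50. SOX2, SOX5 and SOX21 lie under 100, and the open circles of PAX5 and PAX9 mark no H3K27Ac peak.

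The 7 members without a peak in their widened bounds were SOX1, SOX11, SOX14, TBX5, TBX20, PAX1 and PAX7. Each had 0 other protein-coding genes in its window. From their start sites, the nearest peak of any list lay 519 kb from SOX1, 389 kb from SOX11, 313 kb from SOX14, 270 kb from PAX7, 254 kb from PAX1 and TBX5 and 215 kb from TBX20. The members as a whole lay in gene-poor surroundings, with a median of 1 other protein-coding gene in the window, against 4 for all genes. Among genes with 2 or fewer others in the window, 7 of 29 members (24.1%) had no peak within 100 kb, against 5.19% of 6206 such genes. This background pools genes with 0, 1 or 2 others and is not matched to the 7 members, which had 0. The part of gene density in the lack of peaks was not tested. Of the 7, 6 had a CpG-rich canonical start, all but TBX5 (85.7%, against 66.2% of all starts).

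The widened bounds held similar or lower numbers of peaks than those of all genes. The median member had 3 H3K4me3, 4 H3K27Ac, 2 H3K4me1 and 4 FAIRE peaks there, against 3, 5, 2 and 5 for all genes. Of distal peaks, which lie more than 1 kb from any protein-coding start, the median member had 1 H3K27Ac and 2 FAIRE peaks, against 2 and 3. Per 100 kb of window, the medians were 1.46 H3K27Ac and 1.85 FAIRE peaks, against 2.12 and 2.11. The most H3K27Ac peaks were found around SOX7 and SOX12 with 10 each, and SOX5, SOX13, SOX15 and TBX6 with 9 each. The most FAIRE peaks were found around SOX7 with 14 and PAX5 with 11, then GATA6, SOX5 and SOX30 with 10 each. Some FAIRE peaks around SOX7, PAX5 and SOX30 abut, so this order depends on how open regions were split into peaks. These counts depend on the length of the gene and on its neighbours. Of the H3K27Ac peaks, 0 around SOX15, 0 around TBX6 and 3 around SOX12 were distal, with 15, 13 and 7 other protein-coding genes in their windows. SOX5 spans 1033 kb and had only 0.73 H3K27Ac and 0.811 FAIRE peaks per 100 kb, and PAX5, of 201 kb, had 0.998 and 2.74. SOX7, of 6.74 kb, had 4.84 and 6.77. SOX7 had 0 peaks at its own start, and 10 of its 14 FAIRE peaks were distal. SOX7 also had 7 distal H3K27Ac peaks, with scores of up to 3100. The bounds of TBX2 and TBX4 are 42.9 kb apart, so 3 H3K4me3, 2 H3K27Ac and 3 FAIRE peaks were counted for both.

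GATA6 and SOX9 stood alone in their windows, with 0 other protein-coding genes. GATA6 had 5 distal H3K27Ac and 9 distal FAIRE peaks. Its H3K27Ac peaks lay at 17, 21.1, 54, 113 and 117 kb after the start with scores of 67.1, 333, 56.7, 595 and 97.8, and each shared bases with a FAIRE peak. SOX9 had distal H3K27Ac peaks at -23.6 kb with score 111 and at 31.1 kb with score 308, both overlapped by FAIRE peaks. SOX2 had a wide distal H3K27Ac peak at -88.4 kb of 4899 bp and score 3100, where the peak at its own start had 63.4. The peak at -88.4 kb overlapped H3K4me1 of score 444 and FAIRE peaks of height 94.8 and 98.5. A nearer distal H3K27Ac peak of SOX2, at -16.3 kb, had score 1604 and shared bases with an H3K4me3 peak of score 3100. TBX18, a factor of the sinus node and ureter, was singled out after its values were seen. It had no H3K4me3 peak in its window, yet 8 H3K27Ac, 6 H3K4me1 and 7 FAIRE peaks, all distal, and 0 other protein-coding genes. Its strongest H3K27Ac peaks lay at 140, 119 and 112 kb, beyond the far end of the gene, with scores of 3007, 1569 and 1475. The genes these distal peaks act on were not tested.

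**Figure D5:**
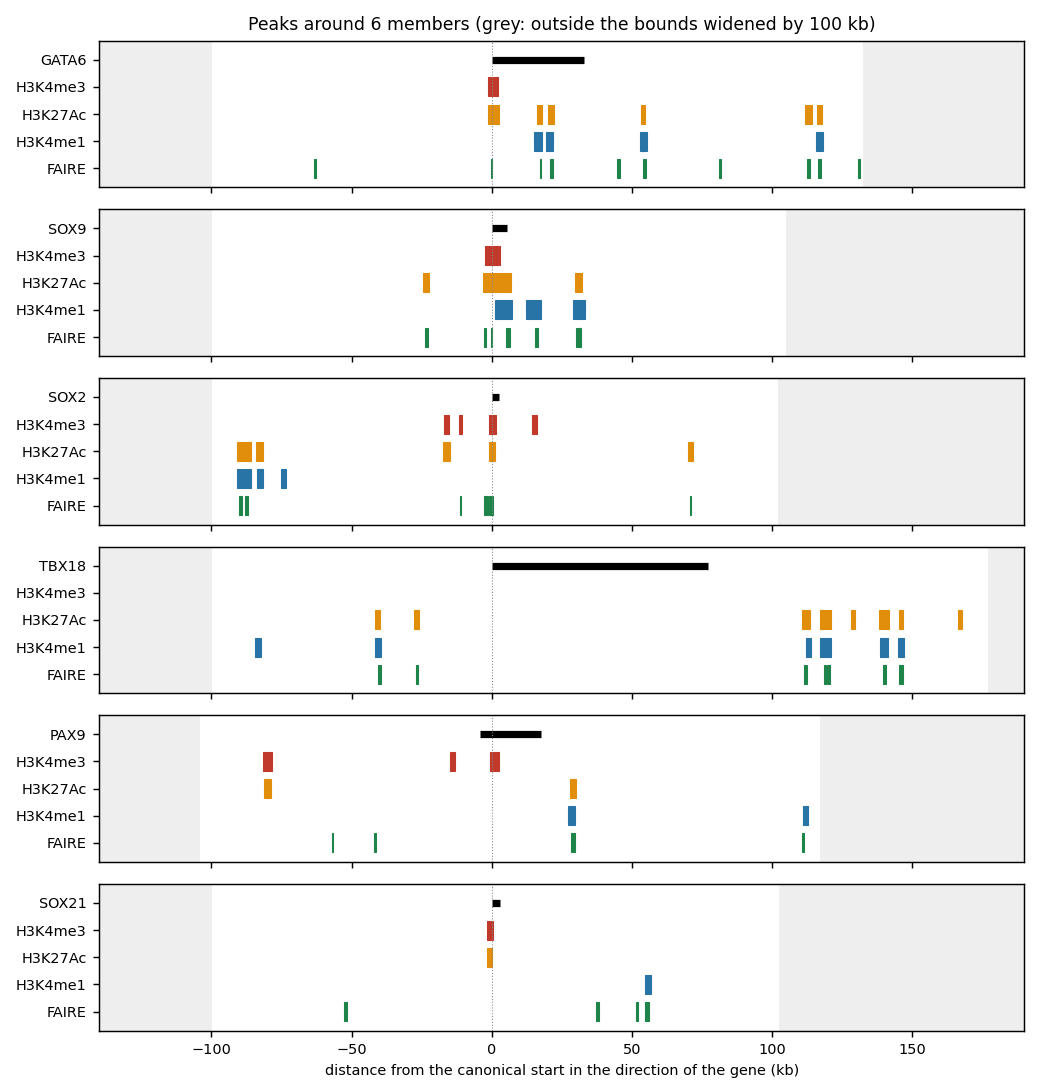
Peaks of the 4 lists around GATA6, SOX9, SOX2, TBX18, PAX9 and SOX21 by distance from the canonical start in the direction of the gene (x axis, kb), drawn to width, with the gene as a black bar. GATA6 has distal H3K27Ac peaks from 17 to 117 kb, and TBX18 has none of H3K4me3 but H3K27Ac peaks at 112, 119 and 140 kb.

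The FAIRE peaks around the members were searched for 5 short motifs in the 300 bases at their centre, on both strands. No motif lies within another. TGANTCA, bound by AP-1, was present in 86 of 192 peaks around members (44.8%), against 39.2% of the 44702 FAIRE peaks of chromosomes 1 to 22. Among distal peaks alone the shares were 52.1% of 140 around members and 43.8% of all. CATTCC, bound by TEAD factors, was present in 21.9% against 21.5%. Motifs of 3 of the 4 families were searched, with none for PAX proteins: AACAAT of SOX proteins was present in 13.5% against 18.1%, AGATAA of GATA proteins in 13.5% against 17.2%, and TCACACC of T-box proteins in 7 peaks (3.65%) against 4.62%. Among distal peaks the SOX, GATA and T-box motifs were present in 17.9%, 16.4% and 2.14% around members, against 19.8%, 18.7% and 4.83% of all.

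For SOX9 and TBX18, the distal FAIRE peak with H3K27Ac and the most AP-1 motifs, then the greatest height, is shown by its central 300 bases on the plus strand of GRCh37, with TGANTCA in capitals. The SOX9 stretch, chr17:70147685-70147984, lies 30.7 kb after the start in introns of SOX9-AS1 and another noncoding gene, under a FAIRE peak of height 145. The TBX18 stretch, chr6:85327898-85328197, lies 146 kb after the start and outside any annotated gene, under a FAIRE peak of height 39.1. Both overlapped H3K27Ac and H3K4me1 peaks, and they held 1 and 2 motifs.
SOX9 distal: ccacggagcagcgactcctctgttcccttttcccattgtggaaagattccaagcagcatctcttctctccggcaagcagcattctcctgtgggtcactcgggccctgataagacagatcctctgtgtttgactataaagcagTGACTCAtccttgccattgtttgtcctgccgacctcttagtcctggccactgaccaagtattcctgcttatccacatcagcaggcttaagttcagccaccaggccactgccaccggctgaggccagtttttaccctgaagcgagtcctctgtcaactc
TBX18 distal: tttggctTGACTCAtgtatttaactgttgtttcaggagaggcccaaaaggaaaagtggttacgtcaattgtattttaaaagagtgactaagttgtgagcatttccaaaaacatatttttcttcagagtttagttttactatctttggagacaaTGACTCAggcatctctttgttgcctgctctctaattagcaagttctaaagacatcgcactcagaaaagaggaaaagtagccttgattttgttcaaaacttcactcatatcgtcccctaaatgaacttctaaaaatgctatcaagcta

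A list of relatives and partners of the factors outside the symbol rule, which includes broadly active genes, was counted in the same way. Of 28 such genes, 26 had H3K4me3 and 23 had H3K27Ac at a promoter, where 68% and 64.2% of all genes had them, and the difference was not tested. Of the 4 other T-box genes, 3 had H3K4me3 and 2 had H3K27Ac. All 7 HMG-box relatives, among them LEF1 and TCF7L2 of Wnt signalling, had H3K4me3, and so had all 6 GATA-type and partner genes, among them TRPS1 and ZFPM2. The 6 Polycomb genes, including EZH2, SUZ12 and EED, had both marks. H3K4me3 without H3K27Ac was found at TCF7L1, at EOMES, a T-box factor of mesendoderm, and at the corepressor gene TLE2. TBXT, the T-box gene of notochord, and TLE4 had no promoter peak of any list.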

How the data were processed

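Members and gene lists were chosen with earlier results of these data known. Per the deposited files, the score of a histone peak is the authors' MACS value, 10 times the negative log10 of p, and the deposited FAIRE signal was read as the peak height of FindPeaks, the caller the authors name. The study's methods name BWA for alignment to hg19 and HOMER for later steps, and the submitters' processing notes list HOMER and also TopHat. The authors combined the samples of each assay, and the 4 lists were matched to assays by their numbers of peaks. Read depth was not used here. Peak starts were converted to count from 1, and overlaps of at least 1 base with GENCODE 44 start sites on GRCh37 were counted with python 3.11.15, numpy 2.4.6 and pandas 2.3.3. The overlap counting was checked on 2000 simulated intervals against bedtools 2.31.1, and 0 differed. Of 124862 autosomal peaks, 0 ended past their chromosome in GRCh37. Members with a promoter peak, with the most H3K27Ac or FAIRE peaks, or without any peak within 100 kb were named with values, and the others by counts. The alternatives were promoter windows of 500 bp and 2 kb, the canonical start alone, p at or under 1e-10, FAIRE heights at or above the median, peak centres, and bounds of 50 and 20 kb. CpG limits were set after the data were seen. Figures were drawn with matplotlib 3.10.9.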

Additional observations from a re-analysis of the deposited data

How the results depend on the processing

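Of 36 values recomputed with another window or peak threshold that could change them, 29 stayed within 1.5 times the value given. In all 20 of these for a peak of 1 list at a promoter, the share of members lay below that of all genes. With the canonical start alone, H3K4me1 marked 1 member (PAX8 and SOX6 lost), FAIRE 4 (PAX8, SOX6 and TBX6 lost), and H3K4me3 without H3K27Ac 1 (PAX5 lost). With peaks of p at or under 1e-10, H3K4me3 without H3K27Ac rose to 5 members by SOX2, SOX5 and SOX21 (11.6%, against 7.17% of all genes). With peak centres in the window, H3K4me1 marked 1 member and H3K4me3 without H3K27Ac 5, with PAX8, TBX2 and SOX9 added (11.6%, against 8.89%). In both, the members' share lay above that of all genes, where it lay below in the report (4.65% against 6.06%). With bounds widened by 20 kb, 13 members had no peak (30.2%, against 12.1%). Chosen after seeing the data, stricter CpG limits (GC above 55%, ratio above 0.75) gave H3K4me3 at 4 of 17 CpG-rich members, and CpG content over 500 bases on each side gave 9 of 33, against 89.6% and 87.9% of all genes. For the other starts these gave 26.9% of members against 41%, and 20% against 23.3%, where the report has 33.3% against 23.5%.

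No paired analysis was possible because only peaks of the combined samples were analysed here. The lists give no depth, so a missing peak means that none was called, not that the mark is absent. Peaks shared by neighbouring genes were counted for each gene, and the lists do not show which start a peak belongs to.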
